A study of Mus musculus with 4 samples.

Results

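The genes described here are 9 components of type 2 cytokine signalling in skin, namely the epithelial cytokine genes Tslp and Il33 and the receptor genes Il1rl1, Crlf2, Il4ra, Il13ra1, Il13ra2, Osmr and Il31ra. They were chosen by name, and all gene probes that carry one of these names on the array were used, which gave 13 of 41174 probes and 9 of 28034 gene names. The tissue was back skin taken at 10 days of age, and all animals had a mixed background (129Sv and C57BL/6). The 2 cKO animals were Adam17flox/flox and Krt14-Cre positive, so that Adam17 is deleted where the keratin 14 promoter is active, that is, in the basal epidermis and the outer root sheath of hair follicles. The 2 control animals were Krt14-Cre negative littermates, called wild-type in the design text. The sources used here do not say whether they carried 1 or 2 floxed alleles, and an effect of Cre cannot be told apart from that of the deletion. The animals were paired by litter, with both replicates 1 from litter 1 and both replicates 2 from litter 2. Each animal gave 1 array of a 1-colour Agilent design.

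TSLP and IL-33 are cytokines of barrier epithelium that start type 2 immune responses. TSLP acts on a receptor made of CRLF2 and the IL-7 receptor alpha chain. IL-33 is kept in the nucleus and is released on cell damage, and it acts on ST2, the product of Il1rl1, together with IL1RAP, above all on mast cells, innate lymphoid cells and T helper cells. IL-4 and IL-13, made by those cells, act back on the skin through IL4RA paired with IL13RA1, while IL13RA2 binds IL-13 with little signalling of the classical kind. OSMR serves the cytokine oncostatin M together with IL6ST, and IL-31, an itch cytokine, together with IL31RA. ADAM17, the protease deleted here, sheds many surface proteins from cells.

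The scanner software flagged 53.7% to 56.6% of an array's 43379 gene spots as well above background and 0 as saturated. Adam17 was read by 2 probes, of which the brighter measured -0.14 and -0.12 in cKO skin and 0.44 and 0.37 in control skin (log2 signal relative to the array's 75th percentile, the scale of all log2 values below). It was lower in both litters, short of the threshold (adjusted p = 0.114, limma over all genes). The sources used here do not give the position of these probes relative to the deleted part, so they cannot check the deletion. The array of cKO replicate 2 stood apart in transcripts of the sex chromosomes. Its Xist signal was 5.18 times the array's 75th percentile, against 0.00894 in cKO replicate 1 and 0.0091 and 0.0107 in control skin. Its Ddx3y signal, from the Y chromosome, was 0.0106, against 1.46 in cKO replicate 1 and 1.30 and 1.19 in control skin. The pair from litter 2 therefore differed in these transcripts and the pair from litter 1 did not. The labels give no sex, and values for each litter are given below for every member.

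Between cKO and control skin, 0 of the 7 members that could be tested passed an adjusted p of 0.05 in limma's fit over 15541 genes, against 0.341% of all genes (53 genes). The lowest adjusted p of a member was 0.157, that of Il33. At an unadjusted p under 0.05 there were 2 members, Il33 and Il1rl1, both higher in cKO skin, against 16.2% of all genes (8.03% higher and 8.12% lower in cKO skin). With litter as a replicate block this count was 3 of 7, with Il31ra added (unadjusted p = 0.00453, limma), while 3706 of all genes reached it, against 2510 without the block. Il31ra entered the test only through the control arrays, where it was brighter, so the filter favours its direction. Without Il31ra, 6 members were tested and those counted were again Il33 and Il1rl1. Over the 4 fits that leave out 1 array, the difference was 0.40 to 0.53 for Il33, 0.28 to 0.70 for Il1rl1 and 0.02 to 0.16 for Il13ra1. It was -0.91 to -0.21 for Il31ra, and its sign turned for Crlf2, Il4ra and Osmr. For Il33 and Il1rl1 both cKO arrays lay above both control arrays, which 28.0% of all genes did in that direction. No member had both cKO arrays below both controls by the probe used in the fit, against 21.4% of all genes. With 2 arrays a group an exact permutation test of a single gene cannot go below p = 0.333 (two-sided), so the tests rest on the spread shared over all genes. The count over all genes was 0 with litter as a replicate block, 0 without control replicate 1, 0 without control replicate 2 and 0 without cKO replicate 2, and that over the members was 0 in each of these fits too.

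**Figure D1:**
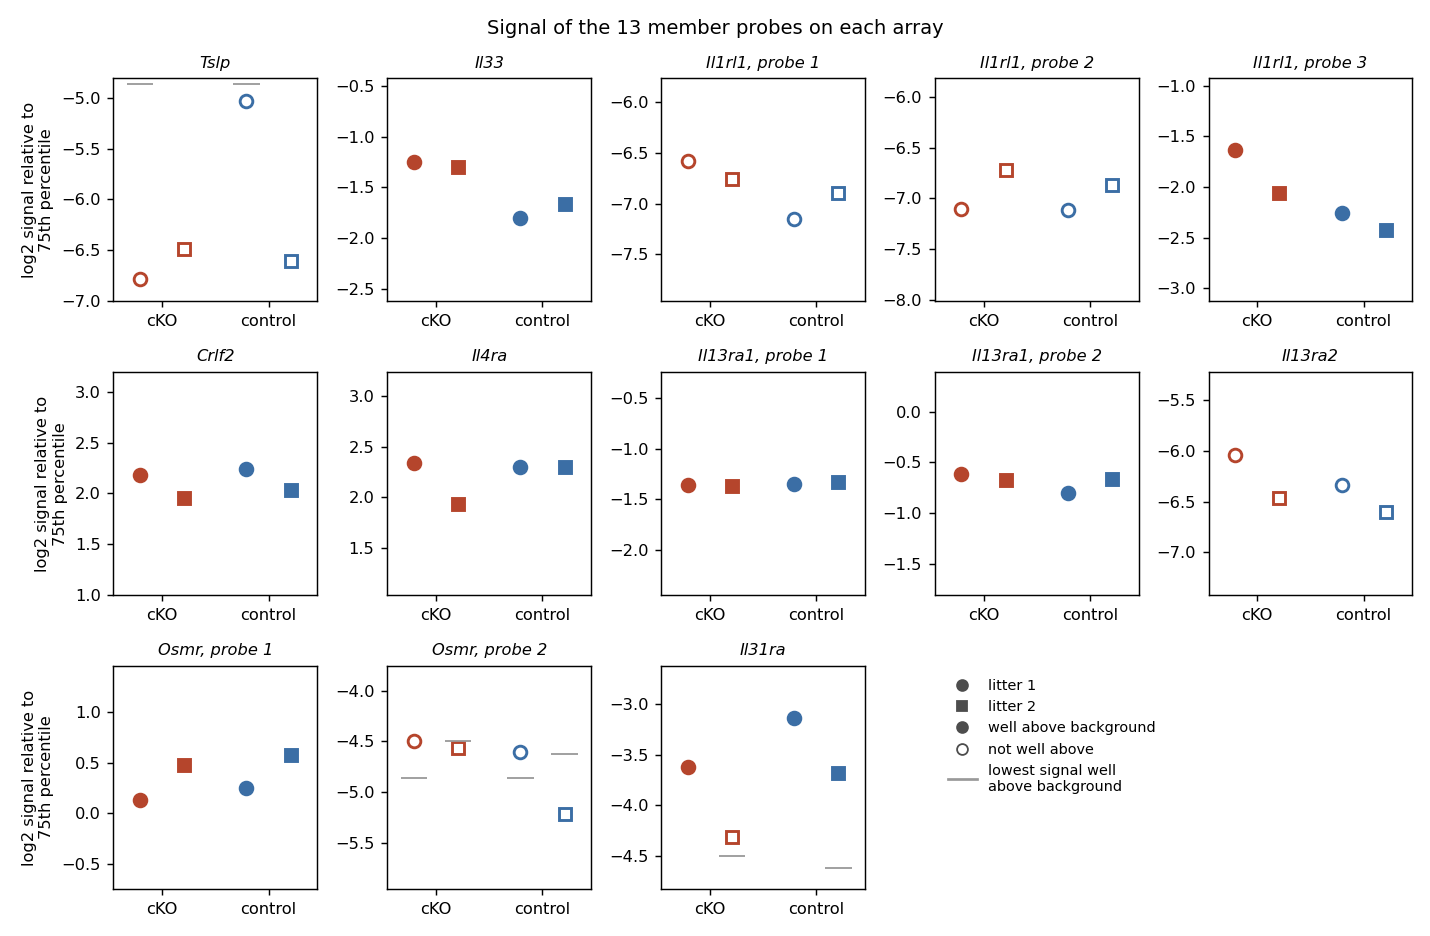
Log2 signal of the 13 member probes (y axis, relative to each array's 75th percentile) in 2 cKO arrays (red, left) and 2 control arrays (blue, right); circles are litter 1, squares litter 2, and open symbols are not well above background. Grey bars, drawn where they fall in the panel's range, mark that array's dimmest probe with the flag. Among the filled symbols, the arrays separate by genotype for Il33 and for the third Il1rl1 probe. They also do for the first Il13ra1 probe, in the other direction and with a difference of only -0.02.

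Of the cytokines, Il33 was higher in cKO skin. Its signal was 325 and 317 in cKO skin, against 216 and 247 in control skin, well above background on all 4 arrays. The groups did not overlap, and the cKO arrays lay closer to each other than the control arrays did. On the log2 scale Il33 averaged -1.27 ± 0.04 in cKO skin and -1.73 ± 0.09 in control skin (SD, n = 2 each). The difference was 0.46 ± 0.09 (SE), a 1.38-fold higher signal, with an unadjusted 95% interval of 0.21 to 0.72 and an adjusted p of 0.157 (limma). It was 0.55 in litter 1, the pair alike in sex-linked transcripts, and 0.37 in litter 2. A difference of this size or larger in either direction was measured for 9.59% of all genes tested. The smallest difference of any gene past the threshold was 1.04, a 2.06-fold change, so the difference of Il33 was smaller than that of every gene past it.

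The probe of Il33 lies on chromosome 19 from 30034990 to 30035049 on the plus strand (mm9) and is listed in the files under 2 RefSeq transcripts of the gene. It cannot show which of the gene's start sites was used. RefSeq lists 2 of them in assembly GRCm38.p6, and their windows, from 250 bases before to 50 bases after the start, are shown because Il33 and Il1rl1 were the members higher in cKO skin in both litters. Capitals mark matches to TATAAA, one of 5 motifs searched on both strands.
Il33 window 1, chr19:29924863-29925162, plus strand: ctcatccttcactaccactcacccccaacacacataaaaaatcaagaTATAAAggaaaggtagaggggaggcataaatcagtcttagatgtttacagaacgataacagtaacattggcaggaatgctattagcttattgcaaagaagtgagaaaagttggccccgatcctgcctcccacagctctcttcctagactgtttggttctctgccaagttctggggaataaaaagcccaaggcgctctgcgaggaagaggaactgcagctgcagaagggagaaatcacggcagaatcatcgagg
Il33 window 2, chr19:29945540-29945839, plus strand: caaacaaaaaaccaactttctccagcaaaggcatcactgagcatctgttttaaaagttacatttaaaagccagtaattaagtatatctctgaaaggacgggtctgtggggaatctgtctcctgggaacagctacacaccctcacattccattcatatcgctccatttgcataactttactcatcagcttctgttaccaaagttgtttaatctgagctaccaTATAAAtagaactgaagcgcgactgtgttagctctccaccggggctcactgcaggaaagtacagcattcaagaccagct
In window 2 the match begins 29 bases before the listed start, and in window 1 it begins 203 bases before it. Of all 32851 such windows, 13.6% hold TATAAA on either strand. The letters of the STAT motif (TTCNNNGAA), the AP-1 motif (TGANTCA), the NF-kB motif (GGGA, any 4 bases, then CC) and the GATA motif (AGATAA) are in neither window.

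Tslp was not measurable in this skin. Its only probe, on chromosome 18 from 32978885 to 32978944 on the plus strand (mm9), gave signals of 7.02 and 8.63 in cKO skin, against 23.0 and 8.00 in control skin. It was well above background on 0 of 4 arrays, and the dimmest probe with that flag measured 26.6 and 34.5 in cKO skin and 25.9 and 31.9 in control skin. Only control replicate 1 had a signal that the scanner software called positive and significant over background. The values of the other 3 arrays are stand-ins that the software writes for a spot at background. No fold change is given for Tslp, and a change below that limit was not detectable here.

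Among the receptors of these cytokines, Il1rl1 was higher in cKO skin by 1 of its 3 probes and at background by the others. This gene encodes a membrane form of ST2, which signals, and a shorter soluble form, which binds IL-33 without signalling. The probe that the files list under transcript variant 1 alone (chromosome 1, 40521952 to 40522011, plus strand, mm9) gave signals of 248 and 187 in cKO skin, against 157 and 146 in control skin. The groups did not overlap, but the cKO arrays differed more from each other than cKO replicate 2 did from control replicate 1. The log2 signal averaged -1.85 ± 0.30 in cKO skin and -2.34 ± 0.12 in control skin (SD, n = 2 each), a difference of 0.49 ± 0.17 (SE) with an unadjusted 95% interval of 0.03 to 0.96 (adjusted p = 0.296, limma). It was 0.62 in litter 1 and 0.36 in litter 2, and 8.56% of all genes had a difference as large. Without cKO replicate 1 it was 0.28, and without cKO replicate 2 it was 0.70 (adjusted p = 0.526 and 0.299, limma).

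The probe listed under variant 2 alone (chromosome 1, 40504769 to 40504828) gave signals of 8.08 and 7.19 in cKO skin, against 5.30 and 6.58 in control skin, and was well above background on 0 of 4 arrays. The probe listed under both variants spans 863 bases of the genome with 60 bases of sequence and so crosses at least 1 intron. It gave 5.62 and 7.40 in cKO skin, against 5.41 and 6.73 in control skin, all 4 of them stand-ins for a spot at background. The probe common to both forms was therefore not detected, although the probe of variant 1 was detected on every array. Its sequence is shown because it is the probe that goes against the detected one, in lower case throughout since the exon boundary was not located.
Il1rl1 probe of both variants, chr1:40498342-40499204, plus strand, mm9: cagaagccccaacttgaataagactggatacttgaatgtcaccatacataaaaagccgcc
The value given for Il1rl1 thus rests on a single probe for 1 transcript variant.

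RefSeq also lists 2 start sites for Il1rl1. Capitals mark AGATAA, the GATA motif, or its reverse complement.
Il1rl1 window 1, chr1:40429320-40429619, plus strand: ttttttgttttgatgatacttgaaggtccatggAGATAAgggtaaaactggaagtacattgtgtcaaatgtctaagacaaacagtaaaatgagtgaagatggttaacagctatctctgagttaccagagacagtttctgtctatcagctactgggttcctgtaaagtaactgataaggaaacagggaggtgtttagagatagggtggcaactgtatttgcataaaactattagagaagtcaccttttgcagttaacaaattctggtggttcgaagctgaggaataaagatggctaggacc
Il1rl1 window 2, chr1:40439379-40439678, plus strand: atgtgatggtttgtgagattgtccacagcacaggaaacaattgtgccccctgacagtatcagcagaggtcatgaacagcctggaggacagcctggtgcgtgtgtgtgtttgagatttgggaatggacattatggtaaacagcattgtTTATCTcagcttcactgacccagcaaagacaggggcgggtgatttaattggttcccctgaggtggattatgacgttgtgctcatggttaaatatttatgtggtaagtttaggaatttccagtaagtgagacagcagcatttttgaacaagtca
Each window holds 1 such match, and 11.2% of all windows hold at least 1. None of the 5 motifs was found in windows of both Il33 and Il1rl1, and whether these genes are regulated alike was not tested. Windows were searched for 8 of the 9 members, 10 in all, and Tslp was left out of the search. Among the others, the STAT motif was found in that of Il31ra (8.30% of all windows hold it), AP-1 in those of Osmr and Il13ra2 (7.81% of all windows), GATA and TATAAA in that of Il13ra2, and the NF-kB motif in those of Crlf2, Osmr and Il13ra1 (20.7% of all windows).

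Crlf2, the chain that gives the TSLP receptor its specificity, was detected on all arrays and did not separate the genotypes. Its signal was 3492 and 3001 in cKO skin, against 3550 and 3215 in control skin. In both groups replicate 1 was brighter than replicate 2, and the groups overlapped. The difference was -0.08 ± 0.13 (SE), with an interval of -0.43 to 0.28 (adjusted p = 0.812, limma), -0.06 in litter 1 and -0.09 in litter 2.

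Il4ra, the chain shared by the receptors of IL-4 and IL-13, gave signals of 3906 and 2963 in cKO skin, against 3692 and 3865 in control skin. Only cKO replicate 2 was low, and the groups overlapped. The difference was -0.17 ± 0.16 (SE), with an interval of -0.60 to 0.27 (adjusted p = 0.662, limma). It was 0.04 in litter 1 and -0.37 in litter 2, so its sign rests on cKO replicate 2, without which it was 0.04.

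Il13ra1, which completes the IL-13 receptor of skin cells, lies on the X chromosome and was read by 2 probes. The brighter probe (33710154 to 33710213, mm9) gave signals of 505 and 488 in cKO skin, against 430 and 493 in control skin. The other probe (33709153 to 33709212) gave 302 and 302 in cKO skin, against 294 and 313 in control skin. The groups overlapped for the brighter probe. For the other probe the signals overlapped, while on the log2 scale both cKO arrays (-1.355 and -1.363) lay just below both controls (-1.352 and -1.326). The brighter probe differed by 0.09 ± 0.10 (SE), with an interval of -0.16 to 0.35 (adjusted p = 0.681, limma), and the other by -0.02. In litter 1 the differences were 0.19 and -0.0036, and in litter 2, where the pair differed in Xist, they were -0.0057 and -0.04.

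Il13ra2, the second IL-13 binding chain and also X-linked, was at background. Its signal was 11.7 and 8.83 in cKO skin, against 9.33 and 8.06 in control skin, with 0 of 4 arrays well above background. The signal was called positive and significant on both arrays of litter 1 and on neither of litter 2. No fold change is given.

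Osmr, which serves oncostatin M and IL-31, gave signals of 849 and 1084 in cKO skin, against 895 and 1166 in control skin, with its brighter probe (chromosome 15, 6763686 to 6763745, minus strand, mm9). Litter 2 was brighter than litter 1 in both groups, by more than the genotypes differed. The difference was -0.11 ± 0.18 (SE), with an interval of -0.58 to 0.37 (adjusted p = 0.808, limma), -0.12 in litter 1 and -0.09 in litter 2. The second probe gave 34.2 and 32.8 in cKO skin, against 30.9 and 21.1 in control skin, and was not well above background on any of the 4 arrays.

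Il31ra, the chain specific to the IL-31 receptor, was dim. Its signal was 62.7 and 39.1 in cKO skin, against 85.4 and 61.0 in control skin, and cKO replicate 2 was not well above background. The groups overlapped by a small margin, since cKO replicate 1 and control replicate 2 had nearly the same signal, while within each litter the cKO array was the dimmer. The difference was -0.56 ± 0.31 (SE), with an interval of -1.39 to 0.27 (adjusted p = 0.460, limma). It was -0.49 in litter 1 and -0.63 in litter 2, and with litter as a replicate block the adjusted p was 0.113 (limma). Without cKO replicate 2, the array on which it was not well above background, it was -0.21. Without control replicate 1 it was -0.29. Without cKO replicate 1 it was -0.91. With normexp background correction the sign turned, to 0.63. Il31ra entered the test only through the control arrays, on which it was brighter, and the filter therefore favours this direction.

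**Figure D2:**
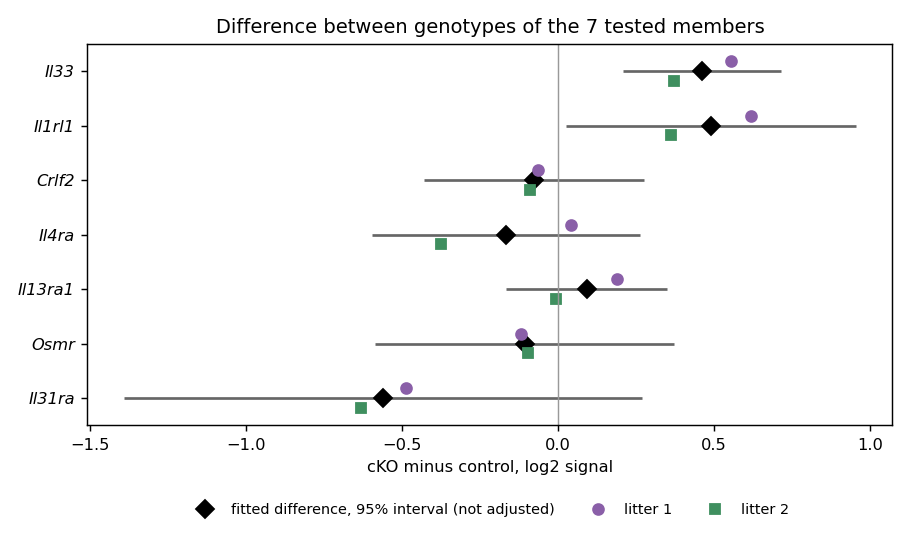
Difference cKO minus control in log2 signal (x axis) for the 7 tested members (rows). Diamonds and bars are the fitted difference and its unadjusted 95% interval (2 arrays a group), circles litter 1 and squares litter 2. The intervals of Il33 (0.21 to 0.72) and Il1rl1 (0.03 to 0.96) lie above 0, and those of the other 5 include 0.

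Over the members as a list, 2 were higher in both litters (Il33 and Il1rl1), against 40.4% of all genes, 3 were lower in both litters (Crlf2, Osmr and Il31ra), against 32.1%, and 2 differed in sign between litters. Il31ra entered the test only through the control arrays, a direction the filter favours, and without it 2 were lower in both litters. The median difference of the 7 was -0.08, against 0.03 over all genes, and over the 6 members well above background on all arrays, which leaves out Il31ra, it was 0.0083. Over the 7 the median absolute difference was 0.17, against 0.14 over all genes. Of the 5 members that did not separate, Crlf2, Il4ra, Il13ra1 and Osmr had intervals that reached at most 0.60 in either direction. These intervals do not show that the levels were equal.

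**Figure D3:**
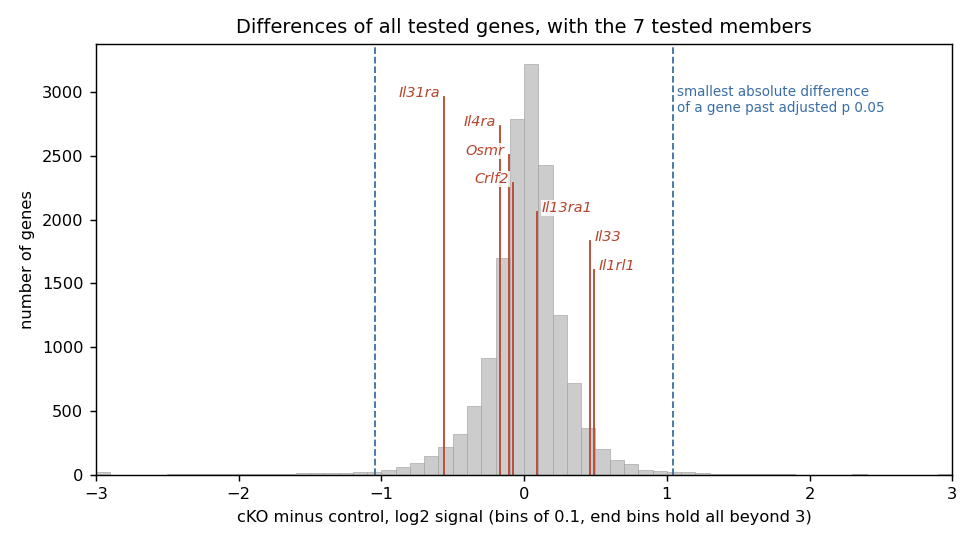
Number of genes (y axis) by difference cKO minus control in log2 signal (x axis, bins of 0.1, the end bins holding all beyond) over 15541 genes, with red lines at the 7 tested members. Dashed lines mark 1.04 on either side of 0, the smallest absolute difference of a gene past the threshold. All 7 members lie between them.

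The other genes of these pathways were read from lists drawn up for the pathways, with earlier results of these data known. Their counts stand against 40.4% of all genes higher and 32.1% lower in both litters, and 16.2% at an unadjusted p under 0.05. Of 9 partner receptor chains, 6 could be tested and 0 passed (limma; 0 also at an unadjusted p under 0.05), 3 were higher and 0 lower in both litters, and their median difference was 0.18. Csf2rb, the signalling chain shared by the receptors of IL-3, IL-5 and GM-CSF, measured 0.32 ± 0.13 (SE; adjusted p = 0.358), and Il1rap, the partner of ST2, 0.25 ± 0.12 (adjusted p = 0.415). Il7r, the partner of CRLF2, was well above background on 2 of the 4 arrays and was not tested.

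Type 2 and related cytokines were not detected. Of 12 listed, 11 had a probe, among them those of Il4, Il5, Il9, Il13, Il31, Il25 and Osm, and all 11 were well above background on 0 of 4 arrays. Their summed signal was 0.168 and 0.181 times the 75th percentile in cKO skin, against 0.137 and 0.163 in control skin. These sums come only from spots not well above background, and no direction is read from them. A change in these cytokines was thus not detectable on these arrays.

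Signal transducers were detected in full. All 16 genes of the list of JAK-STAT and IL-1 receptor signalling, which also holds the transcription factor gene Gata3, could be tested. Of these, 0 passed (limma; 1 had an unadjusted p under 0.05), 7 were higher and 4 lower in both litters, and the median difference was 0.04. Cish, an inhibitor induced by STAT5, measured -0.38 ± 0.11 (SE; adjusted p = 0.245), and Stat6, the transducer of IL-4 and IL-13, 0.18 ± 0.09 (adjusted p = 0.396).

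Of 18 genes known to respond to type 2 cytokines, 12 could be tested and 0 passed (limma; 3 had an unadjusted p under 0.05, 2 higher and 1 lower). Ccl17 is 1 of the 2 higher ones and entered the test only through the cKO arrays, a direction the filter favours. Of the 12, 5 were higher and 4 lower in both litters, and the median was 0.19, but -0.04 in litter 1 against 0.35 in litter 2. Over the 11 well above background on all arrays, which leaves out Ccl17, 4 were higher and 4 lower in both litters and the median was 0.14, a count added after seeing the data. Ccl17, a chemokine that draws T helper cells, was well above background on both cKO arrays and on neither control array. Its log2 difference was 0.81 ± 0.14 (SE; adjusted p = 0.126, limma), 0.58 in litter 1 and 1.04 in litter 2. For a more cautious figure each control array was given its dimmest signal with the flag, or the probe's own where that was higher. The averaged signal in cKO skin was then 1.55-fold higher. This is an average over 2 arrays a group and not a lower limit for each litter. Chil3, a chitinase-like protein of macrophages, measured 1.11 and 2.00 times the 75th percentile in cKO skin, against 0.813 and 0.765 in control skin, a log2 difference of 0.92 ± 0.30 (SE; adjusted p = 0.267). The arginase gene Arg1, another marker of the same response in macrophages that keratinocytes also express, lay in the other direction at -0.42 ± 0.15 (adjusted p = 0.309). It was named after its value was seen.

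Genes known to govern Tslp in keratinocytes were also measured. Of 18, 14 could be tested and 0 passed (limma; 2 had an unadjusted p under 0.05), 6 were higher and 3 lower in both litters, and the median was 0.08. Nfkb1, a subunit of NF-kB, measured 0.28 ± 0.09 (SE; adjusted p = 0.255). Vdr, the vitamin D receptor, through which vitamin D analogues induce Tslp in mouse skin, measured -0.40 ± 0.14 (adjusted p = 0.284).

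**Figure D4:**
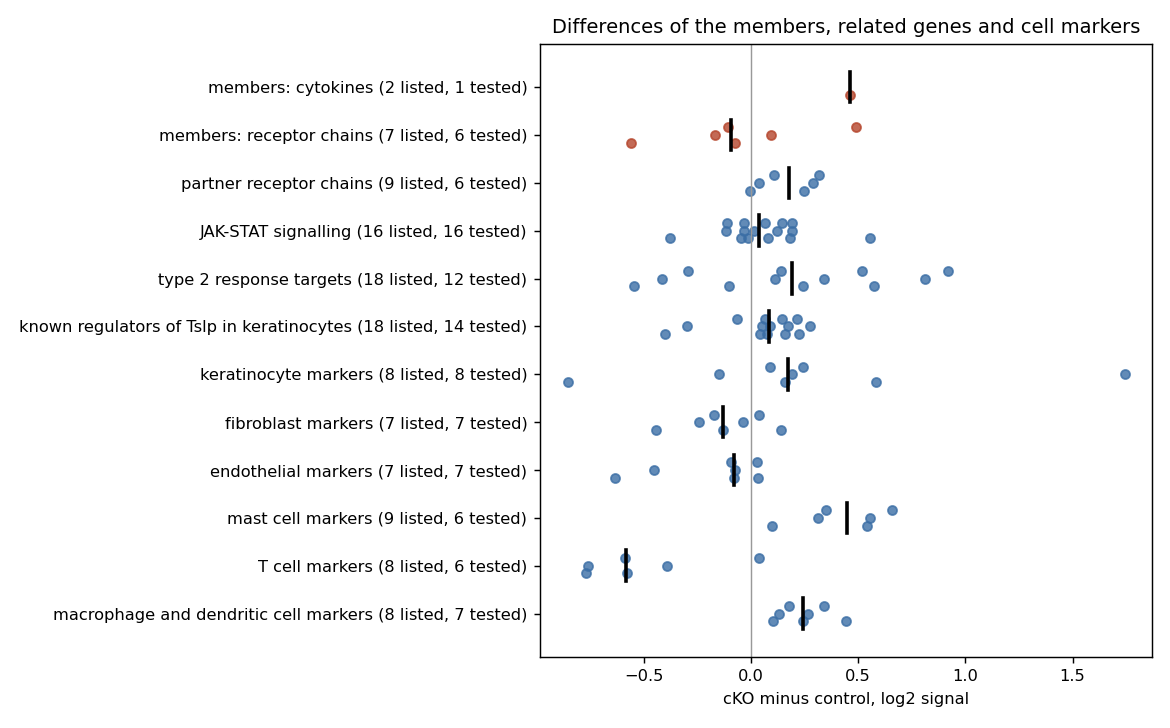
Difference cKO minus control in log2 signal (x axis) of each tested gene (points) by list (rows), with the members in red, related genes and cell markers in blue, and a black bar at each list's median. The members' receptor chains spread from -0.56 to 0.49 around a median of -0.09. The mast cell markers all lie above 0, the lowest being Cpa3 at 0.098.

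The cells that carry these genes make up part of whole skin only, so fewer cells of a type and less RNA per cell cannot be told apart. The counts of all cell marker lists below stand against 40.4% of all genes higher and 32.1% lower in both litters. At an unadjusted p under 0.05 (limma) they stand against 16.2% of all genes. Of 9 mast cell markers, cells that respond to IL-33 through ST2, 6 could be tested, 5 were higher and 0 lower in both litters, their median being 0.45, with 0 past the threshold (limma; 1 had an unadjusted p under 0.05). Their summed signal was 20.5 and 11.8 times the 75th percentile in cKO skin, against 15.2 and 9.70 in control skin. Fcer1a and Ms4a2, which encode chains of the IgE receptor, were well above background on 0 arrays. Within each litter the array with more summed mast cell signal also had more Il1rl1 signal. Control replicate 1 exceeded cKO replicate 2 in this sum and not in Il1rl1. Most of the sum came from Cma1, Mcpt4 and Cpa3. These genes and Tpsb2 were higher in control replicate 1 than in cKO replicate 2. Kit and Hdc were higher in cKO replicate 2, as Il1rl1 was. The part of mast cells in the Il1rl1 result was not tested.

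Of 8 T cell markers, 6 could be tested and 5, among them Cd3d, Cd3e and Cd3g of the T cell receptor complex (named after their values were seen), were lower in both litters, their median over the 6 being -0.58 and 0 past the threshold (limma; 5 had an unadjusted p under 0.05). Cd2, 1 of these 5, entered the test only through the control arrays, and over the 5 markers well above background on all arrays 4 were lower in both litters and the median was -0.59. The summed signal, most of it from Thy1, which fibroblasts also express, was 18.8 and 13.2 in cKO skin, against 18.2 and 13.5 in control skin. Of 8 macrophage and dendritic cell markers, 7 could be tested and 5 were higher in both litters, with sums of 6.42 and 5.66 in cKO skin, against 6.15 and 4.28 in control skin, and 0 passed (limma; 0 also at an unadjusted p under 0.05). Of the 6 markers of basophils and eosinophils, 0 could be tested and 4 were at background on all arrays, among them Mcpt8 and Epx.

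Cell types known to make IL-33 (keratinocytes, fibroblasts and endothelial cells) were compared in the same way, as were fat cells and skeletal muscle. The 8 keratinocyte markers were all detected, with sums of 1207 and 1302 in cKO skin, against 1053 and 1029 in control skin, 6 of them higher and 2 lower in both litters (median 0.17; 0 past the threshold in limma and 3 at an unadjusted p under 0.05, 2 higher and 1 lower). The lower one, the desmosomal cadherin gene Dsg3, measured -0.85 ± 0.09 (SE; adjusted p = 0.0633, limma), and the higher ones were Krt1 at 1.74 ± 0.30 and Krt10 at 0.58 ± 0.12, keratins of the suprabasal layers (adjusted p = 0.127 and 0.158). These 3 were named after their values were seen. The 7 fibroblast markers had sums of 698 and 416 in cKO skin, against 783 and 520 in control skin, with a median of -0.13. The 7 endothelial markers had sums of 6.32 and 5.77 in cKO skin, against 7.10 and 6.26 in control skin, with a median of -0.08. Within each litter the keratinocyte sum was higher in cKO skin and the fibroblast and endothelial sums were lower, with markers in both directions in each list. Of 6 fat cell markers, 4 were higher and 0 lower in both litters (median 0.59; 0 passed in limma, 4 higher at an unadjusted p under 0.05), with sums of 239 and 219 in cKO skin, against 234 and 188 in control skin. Of 6 skeletal muscle markers, 4 were higher and 0 lower in both litters (median 0.34; 0 passed in limma, 2 higher at an unadjusted p under 0.05), with sums of 312 and 332 in cKO skin, against 338 and 247 in control skin. The part of cell composition in the Il33 result was not tested.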

How the data were processed

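Gene expression was measured in 4 back skin samples, 2 cKO and 2 control, on 1-colour Agilent arrays of design 014868 with probe positions in mm9, per the file headers. Scans were read with Feature Extraction, version 10.5 per the submitters' processing notes and 10.7.3.1 per the file headers. The deposited scanner files hold the authors' intensity values per spot, whose processed signal had been spatially and multiplicatively detrended per the file headers. The authors' deposited series table holds log2 values, which matched the scanner values centred on each probe's median (correlation at least 0.99999; column medians -0.06 and 0.08 for cKO replicates 1 and 2 and -0.08 and 0.06 for control replicates 1 and 2). It was an alternative.

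Processed signals were taken to log2 and each array's 75th percentile (over its gene spots) was subtracted, without control spots and the 51 to 66 outlier spots per array. A probe was kept where both cKO or both control arrays had the flag for well above background, and each gene was represented by its brightest probe, which left 15541 genes. Of the probes, 26690 were named through the RefSeq accession (GRCm38.p6), 5189 by symbol, 952 by synonym and 8343 by the name in the files. The test was limma's (version 3.58.1, R 4.3.3; lmFit with eBayes on 4 arrays, no covariate, two-sided, Benjamini-Hochberg over all genes, threshold 0.05, 2.37 prior degrees of freedom), which was tested on simulated data. The labels give the shared litter, and deviations from the group means correlated at 0.35 between the groups across genes, so litter as a block was an alternative. The number of arrays limits the precision.

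The members and lists were chosen with earlier results of these data known. All members were named. Of each pathway list, the members past the threshold or, with none, the 2 with the smallest p were named, and of the sex-linked genes Xist and Ddx3y were named after their values were seen. The 3 genes closest to Il33 were found by Euclidean distance of the 4 centred log2 values.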

Additional observations from a re-analysis of the deposited data

How the results depend on the processing

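The number of members past the threshold was 0 under every one of 13 alternatives. The number of genes past it, 53 with the settings described, was 0 with litter as a replicate block, 0 with normexp background correction, 135 with normexp without the 3 spots of cKO replicate 2 that lay below their local background (an alternative chosen after seeing the data), 80 with quantile normalization, 0 without the filter on dim probes, 28 for probes well above background on all arrays, 35 with every probe on its own, and 0 to 48 with 1 array left out. The replicate block changed no member's call and gave adjusted p of 0.132 for Il33 and 0.140 for Il1rl1 (limma). Il33 and Il1rl1 stayed higher in cKO skin under all 13, with differences of 0.34 to 0.61 and 0.28 to 0.85 and adjusted p of 0.132 to 0.729 and 0.140 to 0.729. The median of the members, -0.08, was 0.25 with normexp, 0.0083 for members well above background on all arrays and 0.024 to 0.063 with 1 array left out. Signs turned for Il31ra with normexp (0.63) and with 1 array left out for Crlf2 (-0.19 to 0.038, above 0 without control replicate 1, 0.026, and without cKO replicate 2), Osmr (-0.28 to 0.066, above 0 without control replicate 2, 0.055, and without cKO replicate 1) and Il4ra (-0.37 to 0.039, above 0 without cKO replicate 2). With normexp fitted without the 3 spots, the sign of Il31ra did not turn. The cause of the other changes was not tested. Tslp, Il13ra2 and the second probe of Osmr lay too close to background for any comparison.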

Other observations

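The genes whose 4 values lay closest to those of Il33, by Euclidean distance after centring each gene on its own mean over the 4 arrays, were Kcnj12 (distance 0.0096), Phlpp1 (0.03) and Emp3 (0.04). Kcnj12, which encodes an inward rectifier potassium channel, measured -3.23 and -3.29 in cKO skin, against -3.79 and -3.65 in control skin, on the log2 scale. Phlpp1, which encodes a phosphatase of AKT, measured -1.17 and -1.25 in cKO skin, against -1.73 and -1.61 in control skin. Emp3, which encodes a membrane protein of the PMP22 family, measured 1.53 and 1.47 in cKO skin, against 0.98 and 1.06 in control skin. Likeness over 4 arrays is a description of these arrays.

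The type 2 response genes Ccl8 and Retnla, named after their values were seen, varied more between litters than between genotypes. Ccl8, a chemokine gene, measured 1.09 and 0.577 times the 75th percentile in cKO skin, against 1.14 and 0.250 in control skin. Retnla, which encodes a secreted protein of alternatively activated macrophages, measured 0.932 and 0.491 in cKO skin, against 0.950 and 0.235 in control skin. In both, the lowest value was that of control replicate 2, and the litter difference by genotype was not tested.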
